A study of Homo sapiens with 12 samples.

Results

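Catalase (CAT), superoxide dismutases 1 and 2 (SOD1, SOD2) and glutathione peroxidases 1, 3, 4, 7 and 8 (GPX1, GPX3, GPX4, GPX7, GPX8) were followed through RNA sequencing of HEK293T cells, a human embryonic kidney line. The 8 genes were chosen by name among enzymes that remove superoxide and peroxides. Peroxiredoxins, which also remove peroxides, were left out of the choice. The count table lists 23615 genes in all. The cells carried either a lentiviral control hairpin (shControl) or a hairpin against HuR (shHuR), and both lines had been selected with puromycin. HuR is the RNA-binding protein encoded by ELAVL1. Each line is a cell population made with a single hairpin, so that effects of HuR and other differences between the populations cannot be told apart. Cells of each line were left untreated, given HNE(alkyne), a tagged form of the lipid electrophile hydroxynonenal, at 25 µM, or given hydrogen peroxide (H2O2) at 225 µM, both for 18 h. The 6 groups held 2 biological replicates each, 12 libraries in all. The p-values within a treatment or a line measure the spread between these replicates. Those over all treatments or both lines come from fits in which the spread also holds any difference in response between the lines. The study asked how HuR bears on the transcriptome of cells exposed to electrophiles and oxidants.

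Superoxide dismutases turn superoxide into hydrogen peroxide and oxygen. Catalase splits hydrogen peroxide into water and oxygen inside peroxisomes, and glutathione peroxidases reduce peroxides with electrons from glutathione or other thiols. GPX4 acts on peroxidized phospholipids in membranes, the lipids whose breakdown releases hydroxynonenal. HuR binds uridine-rich and AU-rich stretches of mRNA, many of them in 3′ UTRs, and is known mainly for stabilizing its targets.

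The 5 glutathione peroxidases differ at the residue that meets the peroxide. In 3 of them, GPX1, GPX3 and GPX4, a TGA codon, read in most mRNAs as a stop, is translated as selenocysteine, while GPX7 and GPX8 have a cysteine codon at the aligned place. The coding sequence around this codon is shown for each gene, because it separates the selenium enzymes from the cysteine enzymes. Each stretch runs 5′ to 3′ over 27 bases of the GENCODE release 29 transcript (GRCh38), with the codon in capitals.
GPX1: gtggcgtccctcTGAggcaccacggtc
GPX3: gtggccagctacTGAggcctgacgggc
GPX4: gtggcctcccagTGAggcaagaccgaa
GPX7: gtggccagcgagTGCggcttcacagac
GPX8: gtggccagtgacTGCcaactcacagac
The capital codon is number 49 of 203 in GPX1, 73 of 226 in GPX3 and 73 of 197 in GPX4. It is number 57 of 187 in GPX7 and 79 of 209 in GPX8, found there by alignment to GPX4. Translated and aligned, GPX7 and GPX8 had 52.43% identical residues, and the other 9 pairs had 33.7% to 43.1%.

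In GRCh38 the genes lie apart from each other. CAT is at chr11:34438925-34472062 on the plus strand, SOD1 at chr21:31659622-31668931 on the plus strand and SOD2 at chr6:159669057-159745186 on the minus strand. GPX1 is at chr3:49357171-49358600 on the minus strand, GPX3 at chr5:151020438-151028993, GPX4 at chr19:1103926-1106791, GPX7 at chr1:52602372-52609051 and GPX8 at chr5:55160118-55167071, the last 4 on the plus strand. SOD1 has 3 annotated pseudogenes, GPX1 has 2 and SOD2 has 1, and none of these is listed in the count table. Reads from such copies could have been added to or lost from the parent gene, so the levels of SOD1, GPX1 and SOD2 are the less certain ones. GPX8 overlaps CDC20B, and SOD2 overlaps WTAP, on the opposite strand, in each case with 0 exonic bases shared. GENCODE holds another SOD2 record on the same strand, which shares 845 bases of the SOD2 transcript used.

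Library totals ran from 24855946 to 29907258 counts, and 16005 genes had enough counts to be tested. ELAVL1, which the hairpin targets, stood at 93.1 ± 4.91 CPM in shControl and 71.3 ± 2.01 CPM in shHuR (SD, n = 6 each). CPM are counts scaled to library size. The log2 fold change was -0.38 over all treatments (edgeR adjusted p = 2.6e-06), so most of this mRNA remained. The line results below, called or not, are for this partial lowering. Replicate 2 of shControl with HNE had the highest share of small nucleolar RNA genes, 1.13% of counts against 0.582% to 1.05% elsewhere, and the lowest scaling factor, 0.965. Replicate 1 of that group and of shControl with H2O2 had 17524 and 17278 genes with a count, against 18057 to 18301 elsewhere. The shControl HNE pair differed most (chi-square of counts per degree of freedom 21.5, against 2.93 to 10.4 in other groups), which does not tell which of its libraries departs. Many of the values below are given with and without shControl HNE replicate 2. VIM (345 to 521 CPM), KRT18 (30.3 to 40.4 CPM) and NEFL (66.3 to 111 CPM), known from HEK293 cells, were present, and the kidney genes PAX2 and LHX1 had at most 0.491 and 1.22 CPM. The defining markers of leukocytes (PTPRC, CD3E), hepatocytes (ALB) and endothelium (PECAM1, CDH5) had at most 6 counts in any library, APOA1 of the hepatocyte list at most 10 and CD14 of the leukocyte list 2 to 15. CD14 averaged 0.387 ± 0.0973 CPM in shControl and 0.194 ± 0.102 CPM in shHuR (SD, n = 6 each, log2 fold change -0.995, edgeR unadjusted p = 0.0264, adjusted p = 0.0757). Of the fibroblast genes DCN had at most 3 counts, COL1A1 reached 4.86 CPM and COL3A1 6.47 CPM, and COL1A1 was at -0.28 and COL3A1 at 0.29 between the lines, neither called. Of the 7 HEK293T markers, 4 differed between the lines over all treatments, by edgeR's quasi-likelihood test: VIM (log2 fold change -0.37), KRT8 (-0.38) and NEFL (-0.47) were lower and NEFM (1.10) was higher in shHuR. The summed level of the 7 was 608 to 669.7 CPM over the shControl libraries and 473 to 535 CPM over the shHuR libraries. The part of this difference between the populations in the line results below was not tested.

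The 8 enzymes spanned levels from SOD1, among the abundant mRNAs of these cells, to GPX7 near 0. Levels are compared between genes as FPKM, fragments scaled to transcript length and library size. SOD1, the copper-zinc enzyme of the cytosol, had the highest level in every library, with 532, 638 and 818 FPKM as the lowest, median and highest of 12 libraries. GPX1, the general glutathione peroxidase of cytosol and mitochondria, followed at 183, 225 and 257 FPKM, and GPX4 at 176, 189 and 215 FPKM. SOD2, the manganese enzyme of mitochondria, had 93.2, 103 and 114 FPKM. GPX1 lay above GPX4 in 12 of 12 libraries, although their ranges overlapped, and the ratio of their means was 1.16.

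The other 4 genes were lower. GPX8, a membrane protein of the endoplasmic reticulum, had 14.2, 16.7 and 18.1 FPKM as lowest, median and highest, and CAT had 14.01, 14.8 and 17.7 FPKM. Their ranges overlapped, and GPX8 was the higher in 10 of 12 libraries. GPX3, the secreted plasma enzyme made in the body largely by kidney tubules, had 1.55, 2.90 and 4.505 FPKM, and GPX7, also of the endoplasmic reticulum, did not exceed 0.205 FPKM. The remaining neighbours in the order, SOD1 and GPX1, GPX4 and SOD2, SOD2 and GPX8, CAT and GPX3, and GPX3 and GPX7, had ranges that did not overlap. SOD1 alone held 53.4% of the summed FPKM of the 8 genes (median over libraries), GPX1 18.7%, GPX4 16.3% and SOD2 8.56%, and catalase 1.27%.

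**Figure D1:**
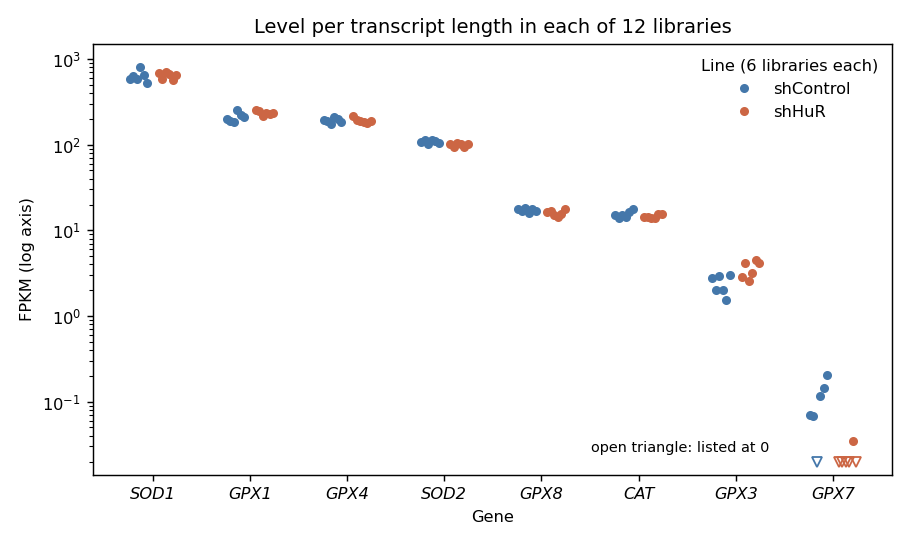
Level of each gene in FPKM (log axis) in the 12 libraries, with shControl libraries in blue and shHuR libraries in orange (6 each), and open triangles for values listed at 0. SOD1 lies above all other genes in every library, GPX1 and GPX4 overlap, GPX8 and CAT overlap, and GPX7 stays at or below 0.205 FPKM.

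A further 4 members of the families, not among the 8, were looked up by name. SOD3, the extracellular superoxide dismutase, had 0 counts in all 12 libraries. GPX5 had at most 3 and GPX6 at most 4 counts in a library. GPX2, the selenium enzyme of the gut epithelium, had 16 to 44 counts and a log2 fold change of -0.16 between the lines (edgeR, adjusted p = 0.681), or -0.28 (adjusted p = 0.445) without shControl HNE replicate 2.

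Between the lines, GPX3 was higher and SOD2 was lower in shHuR cells, and the other tested enzymes did not pass the test. Differences are log2 fold changes of shHuR over shControl from edgeR's quasi-likelihood test with Benjamini-Hochberg adjustment over all tested genes, called at an adjusted p under 0.05. Over all 3 treatments, 2 of the 7 enzymes that could be tested were called, 1 higher and 1 lower, where 29.9% of all tested genes were called, 14.1% higher and 15.9% lower. With libraries scaled by their totals alone, the same comparison called 2604 genes higher and 2161 lower, in place of 2249 and 2538. The share of enzymes called was thus close to that of all genes. The median log2 fold change of the 7 enzymes was -0.01, against -0.0018 for all genes. None of the 8 enzymes had lines whose 6 libraries did not overlap, a pattern seen in 12.1% of all tested genes. For separations of 2 libraries against 2, described below, no such share was counted. In bulk RNA, a change in every cell and a change in the share of cells that express a gene cannot be told apart.

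GPX3 gave the largest difference among the tested enzymes. In shControl its CPM was 4.41 and 3.22 untreated, 4.70 and 3.23 with HNE, and 2.46 and 4.86 with H2O2 (replicates 1 and 2). In shHuR it was 4.52 and 6.55 untreated, 4.13 and 5.10 with HNE, and 7.16 and 6.55 with H2O2. The lines overlapped, and the shHuR library was the higher in 31 of 36 pairs of libraries. GPX3 averaged 3.81 ± 0.9746 CPM in shControl and 5.67 ± 1.25 CPM in shHuR (SD, n = 6 each), 1.47-fold higher. On the log2 scale that was 0.56 (95% interval 0.20 to 0.92, SE 0.171, edgeR adjusted p = 0.0206). Its counts were 65 to 195 per library. The call was lost without shControl untreated replicate 2 (0.51, edgeR adjusted p = 0.0514), shHuR untreated replicate 2 (0.49, adjusted p = 0.0647) or shHuR H2O2 replicate 1 (0.50, adjusted p = 0.0552), and in a limma fit of log2(FPKM + 1) with no filter (adjusted p = 0.0702).

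SOD2 differed less but with a narrower spread. In shControl its CPM was 121 and 127 untreated, 115 and 129 with HNE, and 119 and 114 with H2O2. In shHuR it was 113 and 102 untreated, 116 and 114 with HNE, and 104 and 111 with H2O2. The lines did not overlap in untreated cells or with H2O2, they overlapped with HNE, and shHuR was the higher in 3 of 36 pairs. SOD2 averaged 120.6 ± 6.14 CPM in shControl and 110.0 ± 5.59 CPM in shHuR (SD, n = 6 each), 0.912 times the control level. On the log2 scale that was -0.13 (95% interval -0.22 to -0.04, SE 0.0434, edgeR adjusted p = 0.0285). This call rested on single libraries: it was lost on leaving out shControl untreated replicate 1 or 2, shControl H2O2 replicate 1, shHuR untreated replicate 2, shHuR HNE replicate 2 or shHuR H2O2 replicate 1 (log2 fold change -0.14 to -0.11, edgeR adjusted p 0.0533 to 0.0839). Fits of the deposited FPKM with limma did not call SOD2 either (adjusted p 0.0605 to 0.0749).

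GPX1 came close to the threshold over all treatments and differed most in untreated cells. In shControl its CPM was 143 and 138 untreated, 132 and 185 with HNE, and 159 and 152 with H2O2. In shHuR it was 180.0 and 178 untreated, 156 and 166.5 with HNE, and 163 and 166.5 with H2O2. Both untreated shHuR libraries were above both untreated shControl libraries, and the highest GPX1 value of all 12 was in shControl with HNE, replicate 2. Over all treatments the log2 fold change was 0.15 (SE 0.0685, 95% interval 0.01 to 0.30, edgeR adjusted p = 0.0982), and without that library it was 0.24 (adjusted p = 0.000562). GPX1 was also called with library size alone (adjusted p = 0.0461) and with no filter on low counts (adjusted p = 0.00406). With it left out, 3 enzymes were called between the lines: GPX1, GPX3 and SOD2.

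GPX8 had 64.9 and 60.8 CPM in untreated shControl, 65.5 and 58.9 with HNE, and 64.8 and 61.4 with H2O2. The shHuR libraries had 59.9 and 60.3 CPM untreated, 54.4 and 51.3 with HNE, and 56.1 and 65.0 with H2O2. The shHuR libraries lay below the shControl libraries in untreated cells and with HNE, and the lines overlapped with H2O2. The log2 fold change over all treatments was -0.12 (SE 0.0514, 95% interval -0.23 to -0.01, edgeR adjusted p = 0.0896), and without shHuR H2O2 replicate 2 it was -0.15 and called (adjusted p = 0.0373).

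SOD1, GPX4 and CAT did not pass the test between the lines. SOD1 averaged 494.5 ± 77.3 CPM in shControl and 497.8 ± 43.4 CPM in shHuR (SD, n = 6 each), with a log2 fold change of 0.01 (95% interval -0.14 to 0.16, edgeR adjusted p = 0.920). GPX4 averaged 141 ± 8.79 CPM in shControl and 140.4 ± 9.22 CPM in shHuR (SD, n = 6 each), with a log2 fold change of -0.01 (95% interval -0.11 to 0.09, edgeR adjusted p = 0.901). CAT averaged 33.2 ± 3.08 CPM and 31.4 ± 1.64 CPM (SD, n = 6 each), with a log2 fold change of -0.08 (95% interval -0.18 to 0.02, edgeR adjusted p = 0.247). Without shControl HNE replicate 2 the log2 fold changes were 0.09 for SOD1, 0.03 for GPX4 and -0.09 for CAT, none of them called. With all libraries the intervals of these 3 genes exclude differences of more than 0.18 on the log2 scale in either direction.

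**Figure D2:**
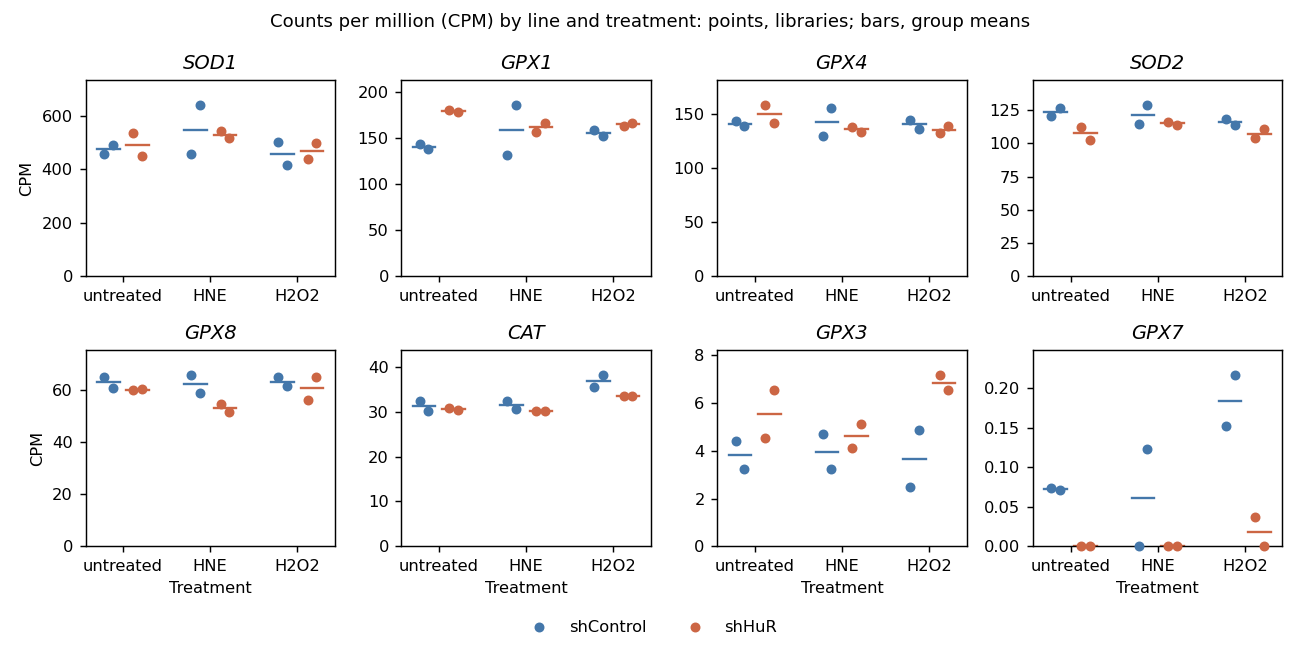
CPM of each gene (vertical axes from 0) by treatment, with shControl in blue and shHuR in orange, points for the 2 libraries of each group and short bars for the group means. GPX3 is mostly higher and SOD2 mostly lower in shHuR, the highest SOD1 and GPX1 values are a shControl library with HNE, and GPX7 is at 0 in 5 of 6 shHuR libraries.

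GPX7 was too low for the test across genes. Its counts in shControl were 2 and 2 untreated, 0 and 3 with HNE, and 4 and 6 with H2O2, and in shHuR 0 and 0, 0 and 0, and 1 and 0. The lines overlapped at 0, through shControl HNE replicate 1. Summed over 6 libraries a line, there were 17 counts in shControl and 1 in shHuR, or 0.104 against 0.0061 CPM. The ratio of shControl to shHuR was 16.9 with a 95% Poisson interval of 2.65 to 708, which covers counting error alone. An exact two-sided permutation test over all 12 libraries gave p = 0.0152 for the difference in mean CPM (0.106 ± 0.0747 against 0.0061 ± 0.0150, SD, n = 6 each), where the smallest possible p was 0.00216. That p is not adjusted for other genes, and its splits cross treatments. With no filter on low values, the adjusted p for GPX7 was 0.0593 with edgeR on counts and 0.0168 with limma on log2(FPKM + 1). The log2 fold changes were -3.40 and -0.13, the latter from values of at most 0.205 FPKM, small beside the added 1.

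Within each treatment, no enzyme was called between the lines by edgeR. In untreated cells 0 of 7 were called, where 7.98% of all genes were, and 2 had an unadjusted p under 0.05, a level reached by 23.3% of genes. These were SOD2, at -0.20 on the log2 scale (adjusted p = 0.114 by edgeR, SE 0.0754), and GPX1, with 0.35 (SE 0.112, 95% interval 0.11 to 0.59, edgeR adjusted p = 0.0693). DESeq2 called 1, GPX1 (adjusted p = 0.0187), as did edgeR with library size alone (0.0457) or no filter on low counts (0.000388). GPX1 was also called by edgeR when either replicate of shControl with HNE was left out of the shared estimate of spread (adjusted p = 0.0017 each), and SOD2 when replicate 1 was (-0.20, adjusted p = 0.04997).

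With HNE, 0 of 7 enzymes were called between the lines, where 8.27% of all genes were, 1 had an unadjusted p under 0.05 (23.9% of genes did) and DESeq2 called 0. That enzyme was GPX8, at -0.24 on the log2 scale (adjusted p = 0.112 by edgeR, SE 0.0869, and -0.31 without shControl HNE replicate 2). GPX1 differed by 0.03 there (adjusted p = 0.919), and by 0.29 (adjusted p = 0.0247) without replicate 2 of shControl with HNE. That leaves 1 library in the shControl arm, assumed to vary like the other groups. GPX3 differed by 0.21 with that replicate and by -0.03 without it (edgeR adjusted p = 0.712 and 0.972), so its sign with HNE rested on it. SOD1 differed by -0.05 with that library and by 0.21 without it (edgeR adjusted p = 0.866 and 0.289).

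With H2O2, 0 of 7 enzymes were called between the lines, where 7.19% of all genes were, 1 had an unadjusted p under 0.05 (23% of genes did) and DESeq2 called 1. That enzyme was GPX3, with a log2 fold change of 0.90 (SE 0.292, 95% interval 0.27 to 1.53, edgeR adjusted p = 0.0785), or 1.87-fold. DESeq2 gave it an adjusted p of 0.0316, and edgeR with no filter on low counts 0.000897. Without shControl H2O2 replicate 2, the higher of that pair, GPX3 differed by 1.47 (edgeR adjusted p = 0.0186), which leaves a lone control library assumed to vary like the other groups.

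**Figure D3:**
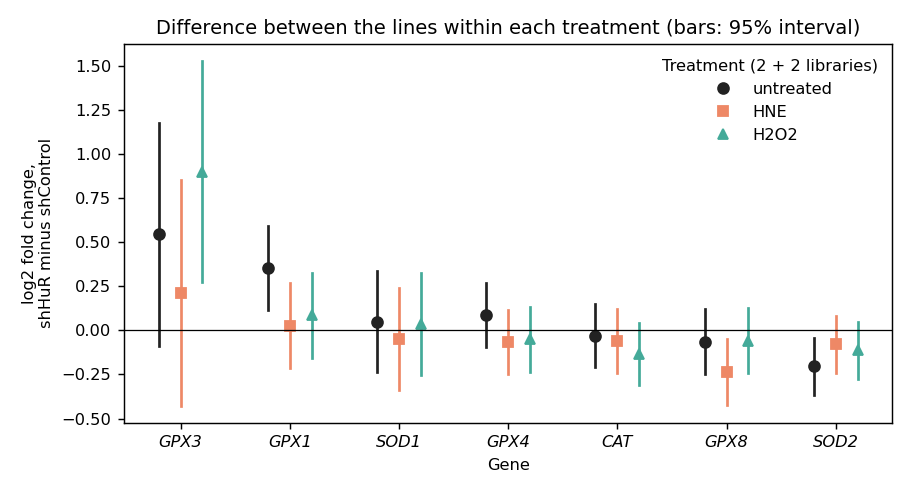
Log2 fold change of shHuR over shControl for each tested enzyme within untreated cells (black circles), HNE (orange squares) and H2O2 (green triangles), each from 2 libraries against 2, with 95% intervals as bars. GPX3 lies above 0 in all 3 treatments, from 0.21 with HNE (-0.03 without shControl HNE replicate 2) to 0.90 with H2O2, and GPX1 is highest in untreated cells at 0.35.

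No enzyme was called after 18 h with HNE. Over both lines, 0 of 7 enzymes were called by edgeR and 0 by DESeq2, and 0 had an unadjusted p under 0.05. Of all genes, 0.247% were called by edgeR and 12.3% had an unadjusted p under 0.05. SOD1 had the largest log2 fold change, 0.16 (95% interval -0.03 to 0.35, edgeR adjusted p = 0.494). Its CPM in shControl was 459.7 and 492 untreated and 458 and 640.0 with HNE, and in shHuR 535 and 450.2 untreated and 542 and 518 with HNE. The treated and untreated libraries overlapped in both lines, and without the library at 640.0 CPM the SOD1 fold change was 0.04.

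The other enzymes lay within 0.11 of 0 with HNE when all libraries were used. GPX3 had a log2 fold change of -0.11 (95% interval -0.49 to 0.28), GPX8 of -0.10 (-0.23 to 0.04) and GPX4, the phospholipid enzyme, of -0.06 (-0.21 to 0.08). SOD2 had 0.04 (-0.09 to 0.16), GPX1 0.01 (-0.19 to 0.21) and CAT -0.00 (-0.14 to 0.13). For all of these but GPX3, a change of 0.25 on the log2 scale lies outside the interval. Without shControl HNE replicate 2, GPX4 was at -0.14 and GPX1 at -0.13 (edgeR adjusted p = 0.206 and 0.205). GPX8 was then at -0.08, GPX3 at -0.04, SOD2 at 0.02 and CAT at 0.01, and none was called. GPX4 had 143 and 139 CPM in untreated shControl and 129 and 155 with HNE, and in shHuR 158 and 142 CPM untreated and 138 and 134 with HNE. Its treated libraries lay on both sides of the untreated ones in shControl and below them in shHuR.

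Within a line, HNE likewise called 0 of 7 enzymes by edgeR or DESeq2 and gave 0 with an unadjusted p under 0.05. Of all genes, 0.0187% were called in shControl and 0.075% in shHuR, and 11.7% and 8.95% had an unadjusted p under 0.05. GPX1 was at 0.18 in shControl (95% interval -0.06 to 0.41, edgeR adjusted p = 0.562) and at -0.15 in shHuR (-0.39 to 0.09, adjusted p = 0.754). The interaction, the difference between these fold changes, was -0.33 (95% interval -0.66 to 0.01, edgeR unadjusted p = 0.0577, adjusted p = 0.733). Without shControl HNE replicate 1 the shControl value was 0.39 (adjusted p = 0.0111) and the interaction -0.54 (adjusted p = 0.0453), and without replicate 2 they were -0.08 and -0.06 (adjusted p = 0.691 and 0.898). Each of these fits has 1 library in the shControl HNE arm, and its p-values take the spread from the other groups. The sign of the GPX1 value in shControl thus depended on which of this pair, at 132 and 185 CPM, was kept.

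H2O2 left the enzymes below the threshold as well, with catalase the nearest to it. Over both lines, 0 of 7 enzymes were called by edgeR and 0 by DESeq2, and 1 had an unadjusted p under 0.05. Of all genes 0% were called by edgeR, and 861 (5.45%) had an unadjusted p under 0.05. CAT had 32.4 and 30.1 CPM in untreated shControl and 35.5 and 38.1 with H2O2, and in shHuR 30.8 and 30.3 CPM untreated and 33.5 in both libraries with H2O2. In each line both H2O2 libraries lay above both untreated ones, an order whose share among all genes was not counted. The log2 fold change of CAT was 0.19 (SE 0.0595, 95% interval 0.06 to 0.31, edgeR unadjusted p = 0.00720, adjusted p = 0.900), with 0.24 in shControl and 0.13 in shHuR. It did not survive adjustment over 15801 genes.

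The other 6 tested enzymes had log2 fold changes with H2O2 from -0.07 for GPX4 (95% interval -0.18 to 0.03) to 0.14 for GPX3 (-0.28 to 0.56). SOD1 had -0.06 (-0.20 to 0.09) and SOD2 -0.05 (-0.15 to 0.06). GPX1 had 0.01 (-0.10 to 0.13) and GPX8 0.01 (-0.11 to 0.13). GPX3 was the least precise, and its interval spans both signs.

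**Figure D4:**
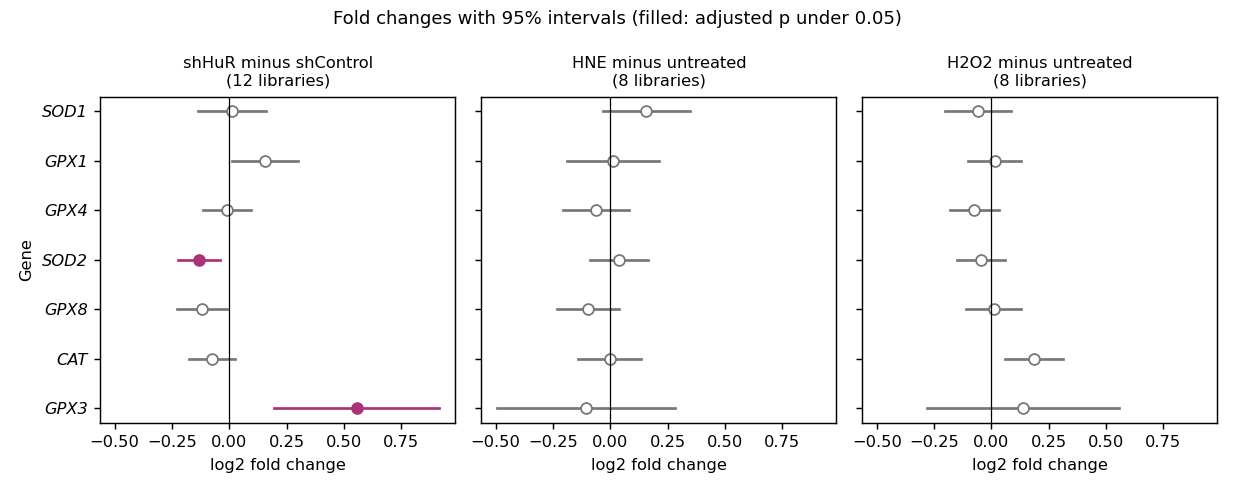
Log2 fold changes of the 7 tested enzymes with 95% intervals for shHuR over shControl (12 libraries), HNE over untreated (8 libraries) and H2O2 over untreated (8 libraries), filled where the adjusted p was under 0.05. Only GPX3 (0.56) and SOD2 (-0.13) are filled, both between the lines, and CAT with H2O2 (0.19) is open although its interval lies above 0.

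The treatments were also set against each other, since their comparisons with untreated cells share the same untreated libraries. HNE over H2O2 called 0 of 7 enzymes by edgeR and 0 by DESeq2, where 0.114% of all genes were called by edgeR, and 2 enzymes had an unadjusted p under 0.05, as had 14.2% of genes. CAT was at -0.19 (95% interval -0.32 to -0.06, edgeR adjusted p = 0.189). Its HNE libraries had 32.4 and 30.5 CPM in shControl and 30.1 and 30.3 in shHuR, each below the H2O2 libraries of the same line. The share of all genes in such an order was not counted. SOD1 was at 0.21 (0.02 to 0.41, edgeR adjusted p = 0.308), and at 0.10 (adjusted p = 0.525) without shControl HNE replicate 2. Its H2O2 libraries had 501 and 416 CPM in shControl and 440.1 and 501 in shHuR.

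The response to treatment was not shown to differ between the lines for any enzyme. Both interactions called 0 of 7 enzymes by edgeR and by DESeq2, with 0 enzymes at an unadjusted p under 0.05. Of all genes 0% were called by edgeR in either interaction, with 1077 (6.73%) and 580 (3.62%) genes at an unadjusted p under 0.05 for HNE and H2O2. The intervals were wide: for GPX3 the interaction with H2O2 was 0.36 (95% interval -0.53 to 1.25) and for GPX1 it was -0.27 (-0.61 to 0.07).

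Features of the 3′ UTRs were read from the GENCODE transcripts, since HuR binds AU-rich and uridine-rich RNA. The pentamer ATTTA, searched on the transcript strand with overlaps allowed, was present in 4 of 8 genes, against 69.69% of the 13441 tested genes with a 3′ UTR. It occurred 36 times in SOD2, 4 times in CAT and 1 time each in SOD1 and GPX8. The 4 other glutathione peroxidases, GPX1, GPX3, GPX4 and GPX7, had 0 copies. The run TTTTTTT was present in 3 of 8 genes, SOD2, CAT and GPX8, against 47.42% of genes. Length goes with these counts: 7 of 8 UTRs were shorter than the median of 1101 bases, from 217 in GPX1 to 863 in GPX3, and that of SOD2 was 13436 bases in the transcript used, of which shorter forms are annotated. Of the 2 enzymes called between the lines, SOD2 held the most motif copies in the transcripts used and GPX3 held none. SOD2 averaged 115 CPM and 104 FPKM, which implies a length behind its FPKM far below the 14266 bases of its transcript. GPX8 averaged 60.3 CPM and 16.6 FPKM, which implies a length above the 1411 bases of its transcript. The UTR lengths and motif counts of these 2 genes may thus not be those of the forms measured. The search describes letters in a reference transcript and not binding in these cells.

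RefSeq promoter windows (GRCh38.p14, 250 bases before to 50 after a start) were found for 7 of 8 genes, 12 windows in all. SOD1 had no window, and SOD2 and GPX4 had several each. The core of the antioxidant response element, TGACNNNGC on either strand, was present in 0 of these windows, against 13.35% of 35116 windows of the same length. With so few windows, several from the same gene, this does not show a share below that of all windows. Elements farther than 250 bases before a start were not searched.

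Partner genes that make, load or feed these enzymes were counted in lists chosen by function. SOD1 needs copper from its chaperone CCS. Among 6 copper genes, 1 was higher and 1 lower in shHuR over all treatments, with a median log2 fold change of 0.08, and CCS itself was at 0.06 (edgeR adjusted p = 0.687). The called genes were the copper-exporting pumps ATP7B (0.15, adjusted p = 0.0371) and ATP7A (-0.20, adjusted p = 0.00725). ATP7B lost its call without any of 8 libraries: shControl untreated 1, HNE 1, H2O2 1 and 2, and shHuR untreated 2, HNE 2, H2O2 1 and 2 (adjusted p 0.0559 to 0.113).

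GPX1, GPX3 and GPX4 depend on the machinery that makes and inserts selenocysteine. Of its 11 genes, 2 were higher and 3 lower in shHuR, with a median of -0.08. SEPHS2, which makes the selenium donor, rose from 56.2 ± 6.74 to 71.4 ± 2.69 CPM (SD, n = 6 each), 0.35 on the log2 scale (adjusted p = 0.000879 by edgeR, SE 0.0673), and the lines did not overlap. SEPP1, the secreted selenium carrier, fell from 8.49 ± 1.76 to 6.37 ± 0.848 CPM (SD, n = 6 each), -0.42 on the log2 scale (adjusted p = 0.0173 by edgeR, SE 0.125). Without shControl HNE replicate 2 that fold change was -0.50. SEPP1 lost its call without shControl HNE 1, shControl H2O2 1 or shHuR H2O2 2 (adjusted p 0.0517 to 0.0561). Of the 3 selenium enzymes themselves, GPX3 was called higher, and GPX1 and GPX4 were not called.

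Catalase is carried into peroxisomes by the PEX proteins. Of the 9 import genes reported here, 4 were lower in shHuR, with a median of -0.12. PEX6, an ATPase that recycles the import receptor, fell from 14.8 ± 1.29 to 10.3 ± 1.26 CPM (SD, n = 6 each), -0.53 on the log2 scale (adjusted p = 8.46e-05 by edgeR, SE 0.0800), with no overlap between the lines. The receptor PEX5 fell by 0.24 on the log2 scale (edgeR adjusted p = 0.00867), a call not refitted with libraries left out. Its lines overlapped, at 62.2 to 84.2 CPM in shControl and 52.1 to 64.5 CPM in shHuR.

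Among 17 enzymes that make superoxide or H2O2, 11 could be tested, and 1 was higher and 2 lower, with a median of -0.05. CYBA, the p22phox subunit of NADPH oxidases, rose from 24.1 ± 2.64 to 38.1 ± 3.59 CPM (SD, n = 6 each), 0.66 on the log2 scale (adjusted p = 8.63e-06 by edgeR, SE 0.0779), was called in each of the 3 treatments and did not overlap between the lines. ERO1LB, an oxidase of the endoplasmic reticulum, fell by 0.20 on the log2 scale (edgeR adjusted p = 0.00611).

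Of 10 regulators reported for CAT and SOD2, 3 were higher and 2 lower in shHuR, with a median of -0.01. PPARGC1A, a coactivator of mitochondrial genes, was at 0.45 (SE 0.144, edgeR adjusted p = 0.0240), and SIRT3, a deacetylase that acts on SOD2 protein, fell by 0.28 on the log2 scale (edgeR adjusted p = 0.00294). PPARGC1A lost its call without shControl untreated 1 or H2O2 1, or shHuR HNE 2 or H2O2 1 (adjusted p 0.05001 to 0.0731). FOXO3, a transcription factor reported for both genes, was at -0.16 (edgeR adjusted p = 0.0242), and this call was not refitted with libraries left out. FOXO4, of the same list, went the other way, with 11.9 to 14.2 CPM in shControl and 14.8 to 17.4 CPM in shHuR.

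Around GPX4, 7 of 8 genes of phospholipid peroxidation could be tested, and 0 were higher and 1 lower, with a median of 0.01. ACSL4, which loads polyunsaturated fatty acids for membrane phospholipids, fell from 112 ± 5.72 to 76.1 ± 5.67 CPM (SD, n = 6 each), -0.56 on the log2 scale (adjusted p = 4.73e-08 by edgeR, SE 0.0420). The lines did not overlap for ACSL4, and it was called in each of the 3 treatments. GPX4 itself was not called, at -0.01.

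**Figure D5:**
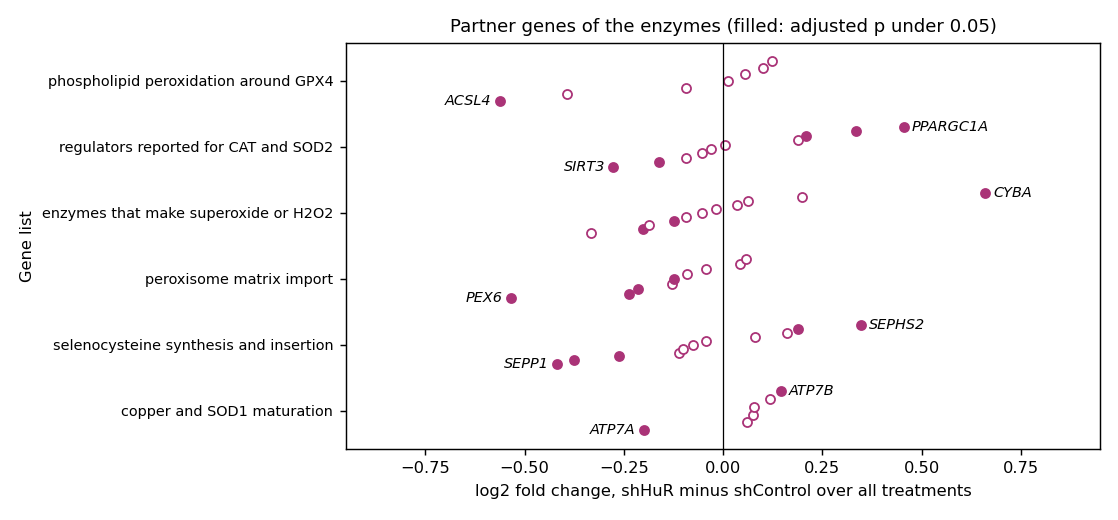
Log2 fold change of shHuR over shControl, over all treatments, for each tested gene of the 6 partner lists, filled where the adjusted p was under 0.05. CYBA (0.66) is farthest to the right and ACSL4 (-0.56) farthest to the left among the called genes, and each list has genes on both sides of 0.

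The shares of each list called between the lines can be read against the 29.9% of all genes: 5 of 11 selenocysteine genes, 4 of 9 import genes, 5 of 10 regulators, 3 of 11 oxidant-making enzymes, 2 of 6 copper genes and 1 of 7 lipid genes.

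The genes most like each enzyme across the 12 libraries were found by Pearson's r of log2 CPM, among tested genes with a mean of at least 5 CPM. These values are descriptions over libraries that share lines and treatments. Each enzyme was compared with 11268 other genes (11269 for GPX3), so high values can arise from the search alone. The values are for all 12 libraries, shControl HNE replicate 2 among them. SOD1 was nearest to NDUFB6 (r = 0.972) and SRSF3 (0.971), GPX1 to PHGDH (0.962) and TUSC2 (0.933), and GPX4 to IMPDH2 (0.966) and FAM195B (0.940). SOD2 was nearest to MRPS9 (0.962) and GOLM1 (0.958), GPX3 to MRPL45 (0.970) and DPY19L3 (0.953), CAT to AGK (0.851) and CTH (0.836), and GPX8 to FAM76A (0.899) and FBXO34 (0.897). CAT and GPX8 had the lowest values among the 7.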

How the data were processed

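Estimated counts and FPKM per gene symbol, as deposited by the authors, were used for all 12 libraries. Per the labels' protocols, ribosomal RNA was removed from 100 ng of total RNA and directional libraries were read as single-end 75 bp reads. Per the submitters' processing notes, cutadapt 1.8, Bowtie2 2.2, TopHat2 2.1, Cufflinks 2.2, Cuffnorm and Cuffdiff were used, with GRCh37/hg19 named as build. Their roles, the annotation and the use of strand in counting are not given in the sources used here. Of the count values 2.25% were not whole, in 701 genes, and counts were rounded before testing. The 8 genes had whole counts.

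A low-count filter (filterByExpr by group, minimum count 10) left 16005 of 23615 genes, and libraries were scaled with TMM. CPM uses the scaled library sizes. Tests were edgeR 4.0.16 quasi-likelihood F-tests (R 4.3.3) adjusted by Benjamini-Hochberg and called under 0.05. Comparisons within a treatment or a line, and interactions, came from 1 fit of 6 group means. The line difference over all treatments used 12 libraries with treatment as a covariate, and treatment effects over both lines used 8 and adjusted for line. Standard errors were derived from the fold change and its F value. GPX7 had an exact permutation test over libraries and a Poisson interval, which covers counting error only, since PCR copies were not told apart.

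Alternatives were DESeq2 1.42.0, other scalings, other filters, a replicate block, limma 3.58.1 on log2(FPKM + 1) or log2(FPKM + 0.1) with a mean FPKM of at least 1 or no filter, and each library left out. Tests were also run on simulated counts with spreads fitted to these data, a check of the code and not of the calls reported here. The members and lists were chosen with earlier results of these data known. Named were all 8 genes, ELAVL1, SOD3, GPX2, GPX5 and GPX6, from each list the called gene with the largest rise and fall, and the 2 genes most like each enzyme. CCS, PEX5, FOXO3, FOXO4 and the cell markers were added after their values were seen. Positions and sequences are from GENCODE release 29 and RefSeq, not from the authors' build. A gene of the peroxisome import list is not reported here, and that list's count and median leave it out.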

Additional observations from a re-analysis of the deposited data

How the results depend on the processing

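Of the 91 fold changes (7 enzymes in 13 comparisons), none that was called changed sign under any of 21 alternatives. Among 1827 refitted values, 1699 kept direction and side of the threshold, 98 uncalled ones changed sign, 17 crossed to a call and 13 lost one, in 11 pairs of gene and comparison. The number of enzymes called between untreated lines went from 0 to 1 with DESeq2, with library size alone and with no low-count filter (GPX1 each time). With H2O2 it went from 0 to 1 with DESeq2 and with no low-count filter (GPX3). Over all treatments it went from 2 to 1 in the 3 limma fits on FPKM: GPX3 with a filter, and GPX7 with none. There it went from 2 to 3 with library size alone and with no low-count filter, GPX1 being added each time. For HNE over H2O2 it went from 0 to 1 with no low-count filter (SOD1, 0.22, adjusted p = 0.00640). Leaving out 1 library gave 0 to 2 called between untreated lines, 0 to 1 with HNE, 0 to 1 with H2O2 and 0 to 3 over all treatments. It gave 0 to 1 for HNE in shControl and 0 to 1 for its interaction. Beyond what these alternatives change by construction, the cause was not tested.

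Over the whole table, genes called between the lines over all treatments ranged from 3898 to 5240 (main 4787). Within untreated cells they ranged from 242 to 2055, with HNE from 164 to 2061 and with H2O2 from 290 to 1845. HNE over both lines called 1 to 334 genes, H2O2 0 to 117, HNE over H2O2 2 to 668, the interaction with HNE 0 to 103 and that with H2O2 0 to 36. Within a line, HNE called 0 to 859 in shControl and 2 to 198 in shHuR, and H2O2 0 to 91 and 0 to 33.

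Libraries with the same replicate number shared little deviation: over 15 pairs of groups, their deviations correlated between -0.107 and 0.129, and 2 were over 0.1. These values do not tell whether same-numbered samples were handled together. With the replicate block the number of enzymes called was the same in all 13 comparisons, 2 between the lines over all treatments and 0 elsewhere, and 4652 genes were called between the lines. The block took the genes called from 39 to 14 for HNE over both lines, from 12 to 6 for HNE in shHuR and from 18 to 10 for HNE over H2O2. With 2 libraries a group, the precision within a treatment is limited, and GPX7 at 0 to 6 counts is limited by depth.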
